A study of Mus musculus with 9 samples.

Results

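The genes described here are 10 transcription factors of the skin epidermis, namely Trp63, Klf4, Grhl1, Grhl3, Ovol1, Gata3, Prdm1, Zfp750, Hopx and Dlx3. They were taken by gene symbol from the 34637 genes of the deposited FPKM table and joined to the read counts by gene identifier. All 10 were among the 20817 genes with enough counts to be tested, so the low-count filter removed none of them.

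The skin came from C57BL/6 male mice that entered the study at 6 to 8 weeks of age, and it was collected at the end of the experiment, on day 28. All mice were shaved on day 0 and sensitized on day 1 with 200 μL of 1% DNCB, a reactive chemical that raises a contact allergy used as a model of atopic dermatitis. They were challenged on the back with 100 μL of 0.5% DNCB from day 4 to day 21. Mice of the FJDHF-M group received the medium dose of Fangji Dihuang formulation, a herbal decoction, by mouth each day after day 7 until day 28, and those of the Model group received water. Both groups carried DNCB dermatitis and neither carried a genetic change. Untreated skin was not analysed here. RNA of whole back skin from 4 Model and 5 FJDHF-M mice was sequenced, with 74648669 to 79474215 counted reads per library.

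The libraries carry the codes MR1, MR3, MR3_4, MR4_5 and MR5, and MXL1, MXL12, MXL3_4 and MXL_3, which the sources used here do not explain. The 5 MR libraries were taken as FJDHF-M and the 4 MXL libraries as Model, because the numbers of libraries match the group sizes and because the Chinese word for model has the initials MX. Every direction given here rests on that assignment. No library was matched to a single mouse, and whether a code such as MR3_4 or MXL12 marks pooled mice is unknown, so each n counts libraries. No library repeated another, since the chi-square between the counts of any pair was at least 126 per degree of freedom, far above counting error.

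The epidermis renews itself from a basal layer of dividing keratinocytes, whose daughters move outward, stop dividing, become spinous and then granular cells, and end as the dead cornified layer that forms the skin barrier. The transcription factors described here act at successive steps of that path. Trp63 maintains the basal layer and the identity of stratified epithelium, Zfp750, Klf4, Grhl3 and Ovol1 act as the cells differentiate, and Prdm1 acts at the last step before cornification. Dlx3, Gata3 and Hopx also act in the hair follicle, which whole back skin contains. Whole skin mixes many cell types, so fewer cells of a type and less RNA per cell cannot be told apart in these values.

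Klf4 is the zinc finger factor whose loss leaves newborn mice without a working skin barrier, and it showed the clearest difference between the groups. Grhl3 and Prdm1 were the pair of factors that rose and fell most closely together across the libraries. The sequence just upstream of the start of these genes is therefore shown, from RefSeq on GRCm38.p6, as the 250 bases before the start site, 5′ to 3′ along the gene. All 3 genes lie on the minus strand. Capitals mark matches on either strand to a GC box (GGGCGG) or a CACCC box (CACCC), the letters that Krüppel-like and related zinc finger proteins are known to bind.

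Klf4, chr4:55532476-55532725: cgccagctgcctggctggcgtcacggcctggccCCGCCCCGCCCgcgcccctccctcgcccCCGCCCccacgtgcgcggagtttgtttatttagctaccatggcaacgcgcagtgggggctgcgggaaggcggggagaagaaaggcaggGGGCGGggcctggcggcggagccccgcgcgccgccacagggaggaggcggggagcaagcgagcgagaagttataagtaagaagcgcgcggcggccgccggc
Grhl3, chr4:135573633-135573882: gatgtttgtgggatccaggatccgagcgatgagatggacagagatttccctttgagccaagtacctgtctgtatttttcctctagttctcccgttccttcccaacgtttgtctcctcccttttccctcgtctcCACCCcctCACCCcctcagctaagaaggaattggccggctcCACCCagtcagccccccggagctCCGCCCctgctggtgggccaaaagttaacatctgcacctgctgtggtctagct
Prdm1, chr10:44458749-44458998: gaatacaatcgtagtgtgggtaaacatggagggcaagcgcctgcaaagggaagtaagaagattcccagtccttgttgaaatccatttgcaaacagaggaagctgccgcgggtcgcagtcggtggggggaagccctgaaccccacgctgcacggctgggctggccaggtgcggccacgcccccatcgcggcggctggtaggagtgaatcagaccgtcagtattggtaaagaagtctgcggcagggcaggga

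The Klf4 window was 74% G and C and held 4 GC boxes, the first 2 of which overlap each other, and no CACCC box. The Grhl3 window was 56% G and C and held 3 CACCC boxes and 1 GC box. The Prdm1 window was 59.2% G and C, held neither motif and lies inside the gene as deposited, since the deposited Prdm1 starts farther upstream. The motifs are common letters, and a GC box was found in 32.7% and a CACCC box in 52.0% of the 32851 mouse promoter windows of the same length. The grainyhead motif AACCGGTT, found in 0.116% of the windows, the GATA motif AGATAA, found in 9.99%, and the homeodomain motif TAATTA, found in 4.84%, were searched on both strands too. None of these 3 occurred in the 8 windows available for Klf4, Grhl3, Prdm1, Gata3, Hopx and Grhl1. A match is a run of letters and not a shown binding site, and no match says only that the letters are not in that window.

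The levels of the factors can be compared with each other on the FPKM scale, which the authors divided by gene length. Klf4 had the highest median over the 9 libraries at 72.7 FPKM (range 45.6 to 98.2). It was followed by Dlx3 at 43.0, Grhl1 at 42.8, Zfp750 at 38.7 and Trp63 at 37.2 FPKM. Hopx at 18.4, Ovol1 at 13.6, Grhl3 at 13.0, Prdm1 at 9.32 and Gata3 at 8.53 FPKM made up the lower part of the order. Even Gata3 exceeded 75.2% of the tested genes by its median, and Klf4 exceeded 97.6%.

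Neighbours in that order were compared within libraries, with a two-sided exact sign-flip permutation test of the log2 FPKM ratio and adjustment over the 9 neighbour pairs. Klf4 exceeded Dlx3 in 8 of 9 libraries (exact permutation test, adjusted p = 0.0439). Grhl1 exceeded Zfp750, Trp63 exceeded Hopx, and Grhl3 exceeded Prdm1 in 9 of 9 libraries each (exact permutation test, adjusted p = 0.0117 for each). The other neighbours did not differ beyond their spread, with adjusted p from 0.0703 for Hopx and Ovol1 to 0.883 for Zfp750 and Trp63 in the exact permutation test. Hopx exceeded Ovol1 in 7 of 9 libraries and Prdm1 exceeded Gata3 in 6. Dlx3 exceeded Grhl1 in only 3, Zfp750 exceeded Trp63 in 3, and Ovol1 exceeded Grhl3 in 4. The order came from these same libraries, so the tests do not stand apart from it.

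The comparison of FJDHF-M with Model skin asks whether the formulation moved the epidermal programme of inflamed skin. Levels between libraries are given in CPM, counts scaled to a common library size by edgeR's TMM method, and fold changes as log2 of FJDHF-M over Model from edgeR's quasi-likelihood test over all 20817 genes. None of the 10 factors passed the study's criteria of an adjusted p under 0.05 and a fold of at least 2, and neither did any other gene (0 of 20817, or 0%). No gene had an adjusted p below 1.00 after rounding, while DESeq2 called 2 genes and none of them was a member. At an unadjusted p under 0.05, 1 of the 10 factors was listed, against 326 of all tested genes (1.57%). Of all tested genes, 161 (0.773%) had such a p and were higher in FJDHF-M. The log2 fold change was above 0 for 8 of the 10 factors, against 44.1% of all tested genes. That count was 4 of 10 without MXL_3, 5 without MR3 or without MR4_5, 10 without MXL3_4, and 5 with the basal keratinocyte score described below as a covariate. The median log2 fold change of the factors was 0.09, beside -0.03 for all tested genes. The groups overlapped for all 10 factors, and 0.514% of all tested genes had groups that did not overlap.

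Gene positions are those of the deposited FPKM table on mm10, which is GRCm38. Klf4 (ENSMUSG00000003032, chr4:55527143-55532466 on the minus strand) was measured at 298, 249.9, 269.9, 304 and 189 CPM in MR1, MR3, MR3_4, MR4_5 and MR5. In MXL1, MXL12, MXL3_4 and MXL_3 it was measured at 228, 147, 152 and 157 CPM. Each FJDHF-M library exceeded each Model library except that MXL1 exceeded MR5, so FJDHF-M was higher in 19 of 20 pairs of libraries. The group means were 262 ± 46.6 CPM (SD, n = 5) and 171 ± 37.9 CPM (SD, n = 4). The log2 fold change was 0.62 (SE 0.20, 95% interval 0.18 to 1.05), a 1.53-fold higher mean in FJDHF-M. Its edgeR p was 0.0100 unadjusted and 1.00 after Benjamini-Hochberg adjustment over all tested genes. Among these genes, 53 had a p as small, Klf4 included. The difference in mean log2(CPM + 0.5) gave p = 0.0317 when tested two-sided by exact permutation over the 126 ways to divide the libraries into 5 and 4, for which 0.00794 is the smallest possible p. Klf4 is 1 of the 10 factors tested in this way, and the others gave larger p, from 0.222 for Grhl3 to 0.992 for Hopx.

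The Klf4 difference kept its direction when the level of basal keratinocyte markers was taken off each library, but it was then smaller. The difference in log2 CPM over the basal score was 0.42 (two-sided exact permutation test, p = 0.214). The basal score is the mean log2(CPM + 0.5) of 11 basal layer genes such as Krt5 and Krt14, and it ranged from 6.58 to 7.66 in FJDHF-M and from 6.20 to 7.95 in Model libraries. With the basal score as a covariate in edgeR, Klf4 had a log2 fold change of 0.56 (unadjusted p = 0.0055).

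**Figure D1:**
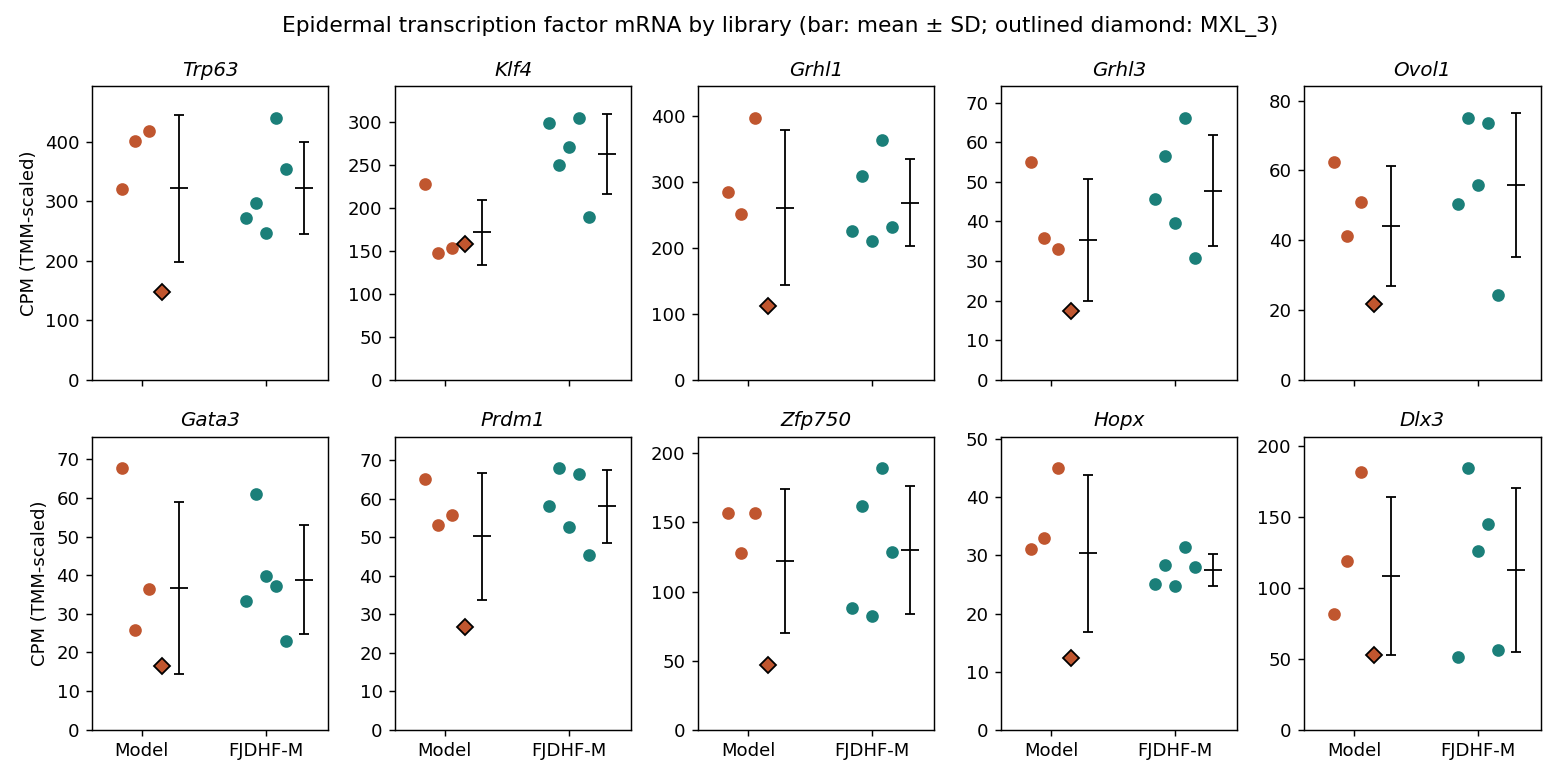
TMM-scaled CPM of the 10 transcription factors in each library, with Model libraries in orange on the left and FJDHF-M libraries in teal on the right of each panel. Bars show mean ± SD and the outlined diamond is MXL_3, the lowest library for 8 of the 10 factors. Klf4 is the factor whose groups lie farthest apart, and in all 10 panels the groups overlap.

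Trp63 (ENSMUSG00000022510, chr16:25683763-25892102 on the plus strand), the factor that maintains the basal layer, was measured at 272, 296, 246, 440.5 and 354 CPM in MR1, MR3, MR3_4, MR4_5 and MR5. In MXL1, MXL12, MXL3_4 and MXL_3 it was measured at 321, 402, 418 and 147 CPM. The highest and the lowest library thus came from different groups, and 3 of the 4 Model libraries lay within the FJDHF-M range. The means were 322 ± 77.3 CPM (SD, n = 5) in FJDHF-M and 322 ± 124 CPM (SD, n = 4) in Model skin. The log2 fold change had an SE of 0.30 and a 95% interval of -0.66 to 0.66 around a value close to 0 (edgeR, unadjusted p = 0.998). Trp63 had at least 10649 counts in every library, and what sets the width of its interval was not tested.

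Hopx (ENSMUSG00000059325, chr5:77086988-77095277 on the minus strand), a small homeodomain protein that lacks DNA binding of its own, was the only other factor with a lower fitted mean in FJDHF-M. It ranged from 24.8 to 31.5 CPM in FJDHF-M and from 12.4 to 45.1 CPM in Model libraries. The FJDHF-M libraries all lay inside the Model range, with means of 27.6 ± 2.78 CPM (SD, n = 5) and 30.4 ± 13.5 CPM (SD, n = 4). For Hopx the log2 fold change was -0.14 (SE 0.30, edgeR unadjusted p = 0.648).

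The grainyhead-like factors Grhl1 and Grhl3 bind the same motif and act on cell adhesion and barrier genes. Grhl3 (ENSMUSG00000037188, chr4:135541888-135573630 on the minus strand), which is needed to close and seal the epidermis, was measured at 45.7, 56.7, 39.7, 66.2 and 30.7 CPM in MR1, MR3, MR3_4, MR4_5 and MR5. In MXL1, MXL12, MXL3_4 and MXL_3 Grhl3 was measured at 55.0, 35.9, 33.0 and 17.4 CPM. FJDHF-M was higher in 15 of 20 pairs of libraries, and the ranges overlapped between 30.7 and 55.0 CPM. Grhl3 had a log2 fold change of 0.44 (SE 0.33, 95% interval -0.29 to 1.16, edgeR unadjusted p = 0.208). That interval reaches a fold of 2.23 and also includes no change. Grhl1 (ENSMUSG00000020656, chr12:24572283-24617391 on the plus strand), which acts on desmosomal adhesion, ranged from 210.3 to 363 CPM in FJDHF-M and from 112 to 397 CPM in Model libraries. Its log2 fold change was 0.04 (SE 0.32, edgeR unadjusted p = 0.906).

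Ovol1 (ENSMUSG00000024922, chr19:5549136-5560646 on the minus strand), a zinc finger repressor that ends proliferation in differentiating keratinocytes, was measured at 50.4, 75.0, 55.7, 73.6 and 24.2 CPM in MR1, MR3, MR3_4, MR4_5 and MR5. In MXL1, MXL12, MXL3_4 and MXL_3 it was measured at 62.5, 41.1, 51.0 and 21.8 CPM. One library of each group, MR5 and MXL_3, lay below the others of its group. Ovol1 had a log2 fold change of 0.34 (SE 0.36, edgeR unadjusted p = 0.372). Zfp750 (ENSMUSG00000039238, chr11:121510978-121519333 on the minus strand), a zinc finger protein that Trp63 switches on and that promotes terminal differentiation, ranged from 82.1 to 189 CPM in FJDHF-M and from 46.9 to 157 CPM in Model libraries. Its log2 fold change was 0.09 (SE 0.37, edgeR unadjusted p = 0.807).

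Prdm1 (ENSMUSG00000038151, chr10:44437177-44528501 on the minus strand), also known as Blimp1, a repressor of the granular layer, was measured at 58.1, 68.0, 52.6, 66.3 and 45.3 CPM in MR1, MR3, MR3_4, MR4_5 and MR5. In MXL1, MXL12, MXL3_4 and MXL_3 it was measured at 65.0, 53.2, 55.8 and 26.7 CPM. Without MXL_3 the Model libraries of Prdm1 lay within the FJDHF-M range, and the log2 fold change of 0.21 (SE 0.25, edgeR unadjusted p = 0.414) became 0.0013. Prdm1 is also the factor that drives B cells to become plasma cells. The plasma cell list of 6 genes had 3 genes higher and 3 lower in FJDHF-M, and its summed level was 280 to 330.3 CPM in FJDHF-M and 257 to 300.2 CPM in Model libraries. Most of that sum was Xbp1, which many cell types make, and without Xbp1 the sum was 6.95 to 37.8 CPM in FJDHF-M and 14.5 to 75.2 CPM in Model libraries. Its lowest gene value was 0.0927 CPM, so no marker was at 0, and the list score had r = -0.58 with Prdm1 across the 9 libraries (rho = -0.60, exact permutation p = 0.0892 and 0.0968, adjusted p = 0.233 and 0.283).

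Gata3 (ENSMUSG00000015619, chr2:9857078-9890034 on the minus strand) acts in the epidermis and in the inner root sheath of the hair follicle, and it is also the master factor of type 2 helper T cells. It ranged from 22.9 to 61.1 CPM in FJDHF-M and from 16.6 to 67.8 CPM in Model libraries, the widest ratio between libraries of the 10 factors at 4.09. Gata3 had a log2 fold change of 0.09 (SE 0.40, edgeR unadjusted p = 0.833). Of the 8 T cell genes, such as Cd3e and Cd4, 7 had a higher and 1 a lower fitted mean in FJDHF-M, and none had an unadjusted p under 0.05. Without MR1, MR3_4 or MXL3_4 the split was 4 and 4. The summed T cell level was 19.6 to 49.9 CPM in FJDHF-M and 22.7 to 34.5 CPM in Model libraries, with no marker at 0. Gata3 had r = -0.19 with the T cell score across the 9 libraries (rho = -0.10, exact permutation p = 0.637 and 0.810, adjusted p = 0.764 and 0.908).

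Dlx3 (ENSMUSG00000001510, chr11:95120119-95125296 on the plus strand), a homeobox factor of differentiating epidermis and of the hair shaft, was measured at 50.9, 184, 125.9, 145 and 56.1 CPM in MR1, MR3, MR3_4, MR4_5 and MR5. In MXL1, MXL12, MXL3_4 and MXL_3 it was measured at 81.4, 119, 181 and 52.5 CPM. High and low libraries occurred in both groups, and Dlx3 had the largest spread of the 10 factors, with a coefficient of variation of 48.1% over the 9 libraries. The log2 fold change of Dlx3 was 0.05 (SE 0.45, 95% interval -0.94 to 1.05, edgeR unadjusted p = 0.909).

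**Figure D2:**
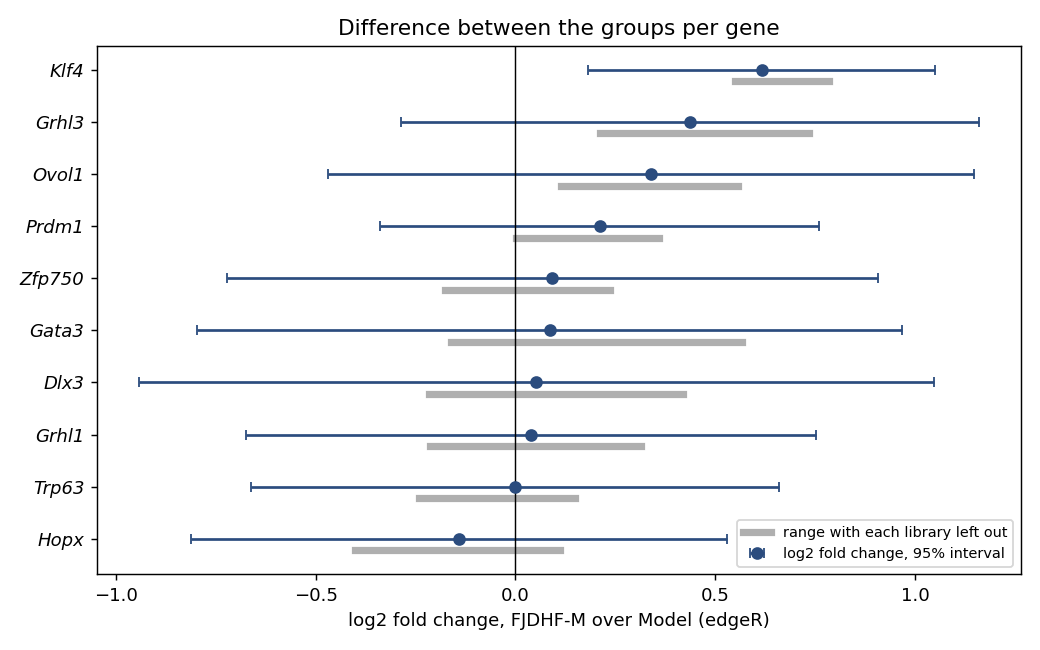
Log2 fold change of each factor, FJDHF-M over Model, from edgeR (points) with its 95% interval (blue lines) and the range when each library in turn is left out (grey bars). The interval of Klf4 lies above 0, from 0.18 to 1.05, and those of the other 9 factors include 0.

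The exons of Ovol1, Gata3 and Hopx overlap those of other annotated genes in GENCODE M21. Ovol1 overlaps Gm31166 and AC126029.1, and Hopx overlaps Hopxos, all on the opposite strand. Gata3 overlaps Gm13256 on the opposite strand and 9230102O04Rik on the same strand. The libraries kept strand, but whether counting used it is not given in the sources used here, so reads of Ovol1, Gata3 and Hopx may be shared with these genes.

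The library MXL_3 stood apart in most of these values. It was the lowest library for 8 of the 10 factors, the exceptions being Klf4, lowest in MXL12, and Dlx3, lowest in MR1. The highest library was MR4_5 for 4 factors, MR3 for 3, MXL3_4 for 2 and MXL1 for 1. MXL_3 also had the lowest score of the suprabasal and cornification genes (5.90, against 6.54 to 7.73 in the other libraries) and of the basal genes (6.20, against 6.58 to 7.95). Its score of 8 skeletal muscle genes was the highest (10.5, against 5.55 to 9.65), as was its endothelial score (5.75, against 4.48 to 5.29). The part of these differences in the factor levels was not tested. Without MXL_3, the median log2 fold change of the 10 factors was -0.17, and the Klf4 value was 0.58.

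Over all 9 libraries the factors tended to move together, but less so without MXL_3. All 45 pairs of factors had a positive Pearson r of log2(CPM + 0.5), with a median of 0.65 and a range of 0.01 to 0.95. An exact permutation test over all pairings, adjusted over the 45 pairs, gave an adjusted p under 0.05 for 14 pairs. The share of pairs of any tested genes that would pass was not computed, so that number has no background beside it. When MXL_3 was left out, 0 pairs passed and some r values were negative. The range of r was then -0.68 (Klf4 and Hopx) to 0.92 (Ovol1 and Prdm1), with a median of 0.43. The number of pairs with r above 0.8 fell from 14 to 5. The count therefore rests on that library, while leaving out any other library gave 10 to 17 pairs. For the 14 pairs that passed, r of the deviations from the group means lay between 0.84 and 0.95.

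Grhl3 and Prdm1 had the highest r, 0.95 (rho = 0.92, exact permutation test, adjusted p = 0.0017 and 0.0198). Their r was 0.91 without the 2 libraries farthest from the Grhl3 median, 0.91 without MXL_3, and 0.94 for deviations from the group means. Grhl3 and Ovol1 had r = 0.90 (rho = 0.90, exact permutation test, adjusted p = 0.0017 and 0.0198), with 0.81 without the farthest 2 and 0.83 without MXL_3. Ovol1 and Prdm1 had r = 0.89 (rho = 0.88, exact permutation test, adjusted p = 0.0017 and 0.0198), with 0.87 without the farthest 2 and 0.92 without MXL_3. These 3 factors of the outer living layers were low together in MXL_3 and MR5 and high together in MR3 and MR4_5.

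Grhl1 and Zfp750 had r = 0.94 (rho = 0.88, exact permutation test, adjusted p = 0.0017 and 0.0198), with 0.92 without the farthest 2 and 0.84 without MXL_3. Trp63 and Hopx had r = 0.93 (rho = 0.90, exact permutation test, adjusted p = 0.0052 and 0.0198), with 0.85 without the farthest 2 and 0.77 without MXL_3. Grhl1 and Hopx had r = 0.94 (rho = 0.88, exact permutation test, adjusted p = 0.0063 and 0.0198), and this relation was weaker without the farthest 2, at 0.65. Without MXL_3 the pairs among Trp63, Hopx, Grhl1 and Zfp750 kept r between 0.62 and 0.84. Those among Prdm1, Grhl3, Ovol1 and Gata3 kept r between 0.68 and 0.92. Pairs that joined a factor of the first 4 with one of the second 4 then lay between -0.33 and 0.54. These groupings were read from the values and were given no test.

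Klf4 had the lowest median r with the other 9 factors, 0.23. Over all 9 libraries its r was 0.04 with Trp63 and 0.01 with Hopx, and both values depended on the libraries included. Without MXL_3 they were -0.51 and -0.68. Without MR4_5 and MXL_3, the libraries farthest from the Trp63 median, the r with Trp63 was -0.96. Without MXL3_4 and MXL12, those farthest from the Klf4 median, the r with Hopx was 0.67. The highest r of Klf4 among the factors was 0.73 with Grhl3 (rho = 0.72, exact permutation test, adjusted p = 0.053 and 0.104). Dlx3 also had 0 of 9 pairs past the adjusted threshold, with a highest r of 0.71 with Grhl1 (rho = 0.73, exact permutation test, adjusted p = 0.053 and 0.104).

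**Figure D3:**
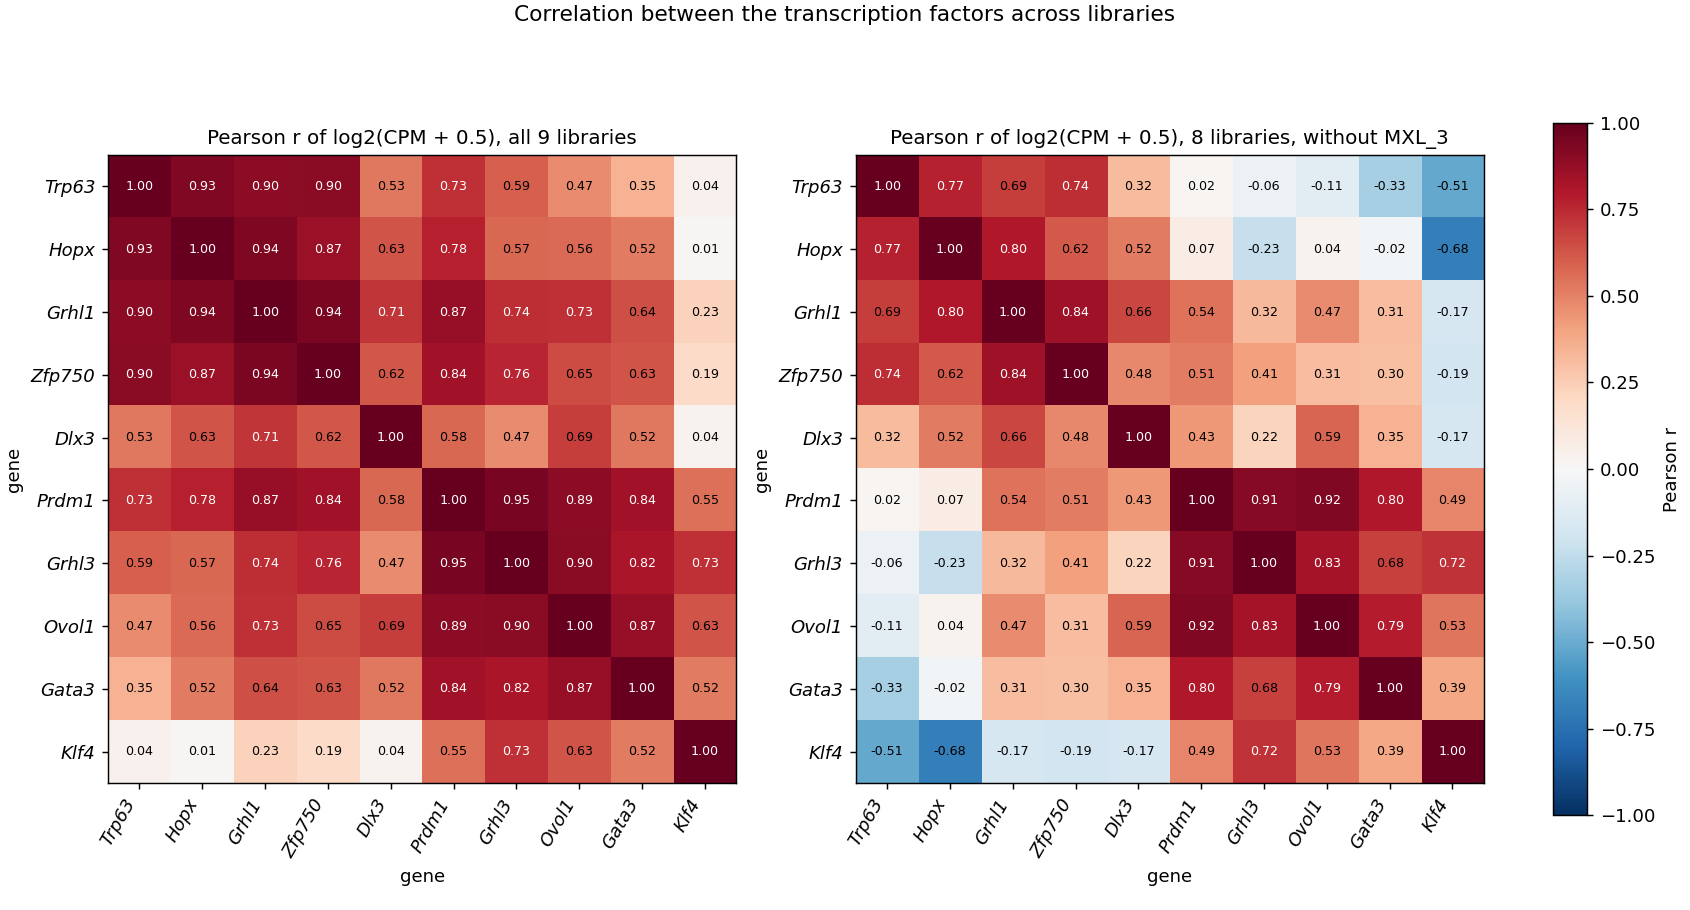
Pearson r of log2(CPM + 0.5) for each pair of factors over all 9 libraries (left) and over the 8 libraries other than MXL_3 (right), in colour from blue (-1) to red (1). Squares of high r along the diagonal, Trp63 to Zfp750 and Prdm1 to Gata3, are seen in both panels, and the row of Klf4 is pale or blue against the first of them. The gene order was set by hand, and in the left panel pairs between the squares reach 0.87 (Grhl1 and Prdm1).

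Genes of the spinous, granular and cornified layers, which include known targets of several of these factors, were compared next. Of 26 suprabasal and cornification genes, 24 had a higher and 2 a lower fitted mean in FJDHF-M, with a median log2 fold change of 0.70 beside 0.09 for the 10 factors. An unadjusted p under 0.05 was reached by 10 of the 26, all higher in FJDHF-M, and by 0 of those lower (0.773% of all tested genes were higher at that p). The groups did not overlap for 2 of them, Casp14 and Ivl, beside 0.514% of all tested genes. After adjustment over all tested genes 0 of the 26 passed in edgeR. When libraries were left out in turn, the number at an unadjusted p under 0.05 was 8 to 16, with the highest without MXL1.

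Casp14, a protease of the cornified layer, had 358 to 622 CPM in FJDHF-M and 126 to 282 CPM in Model libraries (log2 fold change 1.42, SE 0.25, edgeR unadjusted p = 0.00021 and adjusted p = 1.00). Rptn, a granule protein, had a log2 fold change of 1.87 (SE 0.50, edgeR unadjusted p = 0.0039). Krt1, a keratin of the spinous layer, had a log2 fold change of 1.48 (SE 0.41, edgeR unadjusted p = 0.0045), and Flg, the precursor of filaggrin, one of 1.36 (SE 0.40, edgeR unadjusted p = 0.0061). The list was chosen with earlier results of these data known, and its counts are a description. None of the 10 factors had a log2 fold change as large as that of these 4 genes. The 4 were picked for the smallest p in their list, which favours large values, while all 10 factors are given.

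Of 24 other regulators of the epidermis, such as Grhl2, Ovol2, Klf5 and the Notch receptors, 16 had a higher and 8 a lower fitted mean in FJDHF-M, with a median log2 fold change of 0.14. Among them Klf5, a relative of Klf4, had a log2 fold change of 0.44 (SE 0.20, edgeR unadjusted p = 0.056). Of the 11 basal keratinocyte genes, 6 had a higher and 5 a lower fitted mean, with a median of 0.02, and 0 had an unadjusted p under 0.05. Without MXL1, 9 of the 11 were higher, with a median of 0.73.

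**Figure D4:**
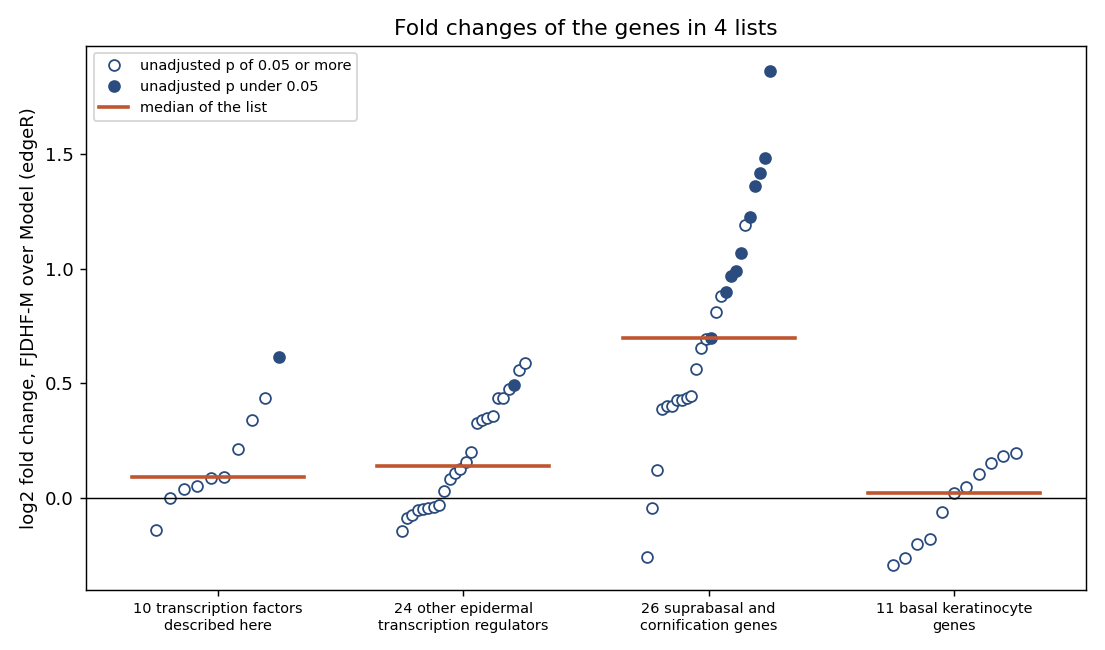
Log2 fold change (FJDHF-M over Model, edgeR) of each gene in 4 lists, ordered within the list, with filled points for an unadjusted p under 0.05 and a bar at the list's median. The suprabasal and cornification genes have their median at 0.70, and the 10 transcription factors have theirs at 0.09, close to the basal keratinocyte genes at 0.02.

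The factors were then set against the list scores of the libraries, each the mean log2(CPM + 0.5) of a list, in 120 pairs of a factor and a list. Of these, 12 had an adjusted p under 0.05 for Pearson r in the exact permutation test over the 9 libraries. For Spearman rho the smallest adjusted p of the 120 pairs was 0.0608 in the same kind of test, so no pair passed by rank. The 12 pairs were not counted again without MXL_3, and the share that other tested genes would give was not computed. Libraries with more Klf4 had more suprabasal and cornification mRNA, with r = 0.89 (rho = 0.92, exact permutation test, adjusted p = 0.0153 and 0.0608). That r was 0.95 without the 2 libraries farthest from the median score, 0.97 without MXL_3, and 0.74 for deviations from the group means. Klf4 had r = 0.61 with the basal score (adjusted exact permutation p = 0.233), which did not pass.

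Grhl3 followed both compartments, with r = 0.88 with the basal score (rho = 0.83, exact permutation test, adjusted p = 0.0200 and 0.108) and 0.85 with the suprabasal score (rho = 0.73, exact permutation test, adjusted p = 0.0402 and 0.156). Without the farthest 2 libraries these r values were 0.92 and 0.66, and without MXL_3 they were 0.90 and 0.67. Grhl3 had r = 0.97 with the score of the 24 other regulators, Prdm1 0.95 and Ovol1 0.85 (exact permutation test, adjusted p = 0.0089, 0.0191 and 0.0191). Their rho was 0.90, 0.82 and 0.80 (exact permutation test, adjusted p = 0.0608, 0.108 and 0.111). Without the farthest 2 libraries the r values were 0.90, 0.78 and 0.68, and without MXL_3 0.93, 0.82 and 0.74.

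Dlx3 followed the hair follicle list of 9 measured genes, such as Krt25, Krt71 and Hoxc13, with r = 0.92 (rho = 0.90, exact permutation test, adjusted p = 0.0191 and 0.0608). That r was 0.89 without the farthest 2 libraries and 0.92 without MXL_3. The hair follicle score was highest in MR3 at 9.02 and lowest in MR5 at 6.53 and MR1 at 6.55, and Dlx3 was highest in MR3 and lowest in MR1. The list had 5 genes higher and 4 lower in FJDHF-M, with a median log2 fold change of 0.03, and 0 of 9 were higher without MR3 and 9 of 9 without MXL3_4.

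Trp63 ran against the endothelial list of 8 genes, such as Pecam1 and Cdh5, with r = -0.96 (rho = -0.90, exact permutation test, adjusted p = 0.0089 and 0.0608). That r was -0.92 both without the farthest 2 libraries and without MXL_3. Hopx, Zfp750 and Grhl1 had r = -0.91, -0.87 and -0.86 with the same score (exact permutation test, adjusted p = 0.0176, 0.0402 and 0.0402). Their rho was -0.80, -0.63 and -0.78 (exact permutation test, adjusted p = 0.111, 0.264 and 0.115). Without the farthest 2 libraries the r values were -0.73, -0.71 and -0.50, and without MXL_3 -0.80, -0.70 and -0.67. Trp63 also had r = -0.85 with the skeletal muscle score (rho = -0.87, exact permutation test, adjusted p = 0.0352 and 0.0902). The endothelial list had 1 gene higher and 7 lower in FJDHF-M with a median log2 fold change of -0.12, and the muscle list had 3 higher and 5 lower with a median of -0.22. Both directions turned without MXL_3, to 6 of 8 endothelial genes higher (median 0.22) and 8 of 8 muscle genes higher (median 1.17). Summed endothelial mRNA was 399.9 to 609.9 CPM in FJDHF-M and 377 to 796 CPM in Model libraries, and summed muscle mRNA 1434 to 8973 and 490.1 to 13663 CPM, with no marker of either list at 0. CPM values are shares of a library, so more RNA of one tissue lowers the share of the others, and that part was not separated here.

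**Figure D5:**
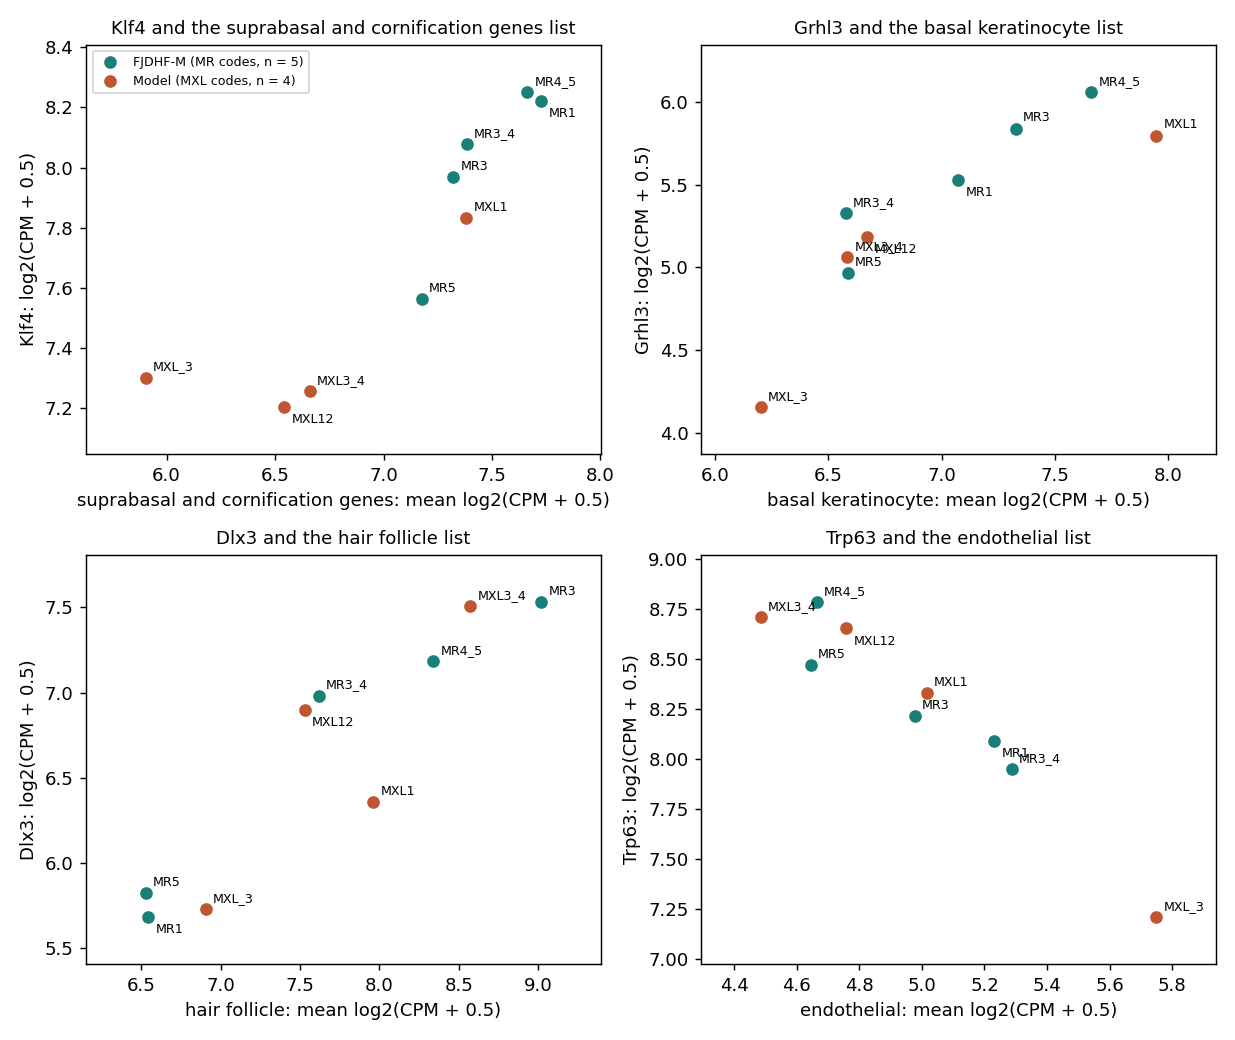
Log2(CPM + 0.5) of Klf4, Grhl3, Dlx3 and Trp63 (vertical axes) against the mean log2(CPM + 0.5) of the suprabasal and cornification, basal keratinocyte, hair follicle and endothelial lists (horizontal axes), 1 point per library, with Model in orange and FJDHF-M in teal. Klf4, Grhl3 and Dlx3 rise with their list (r = 0.89, 0.88 and 0.92), and Trp63 falls with the endothelial list (r = -0.96).

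The remaining cell type lists showed no gene with an unadjusted p under 0.05 for macrophages (7 of 7 genes with a higher fitted mean in FJDHF-M, median log2 fold change 0.25) and neutrophils (7 of 7 lower, median -0.89, with Ly6g at 0 in some libraries of both groups). The neutrophil score was 5.13 in MXL12, against 1.66 to 3.28 in the other Model and 2.30 to 3.42 in the FJDHF-M libraries. Without MXL12, 5 of the 7 neutrophil genes were higher in FJDHF-M, with a median of 0.59. Without MXL3_4 the macrophage genes were 4 higher and 3 lower, with a median of 0.0005. All 8 sebaceous gland genes had a lower fitted mean (median -0.43). Mc5r alone among them had an unadjusted p under 0.05, with a log2 fold change of -0.78. Without MXL1 the sebaceous gland genes were 3 higher and 5 lower, with a median of -0.18. All 6 fibroblast genes had a lower fitted mean (median -0.42). Col3a1 alone among them had an unadjusted p under 0.05, with a log2 fold change of -0.57. The macrophage, neutrophil, sebaceous gland and fibroblast scores were among the pairs of a factor and a list given above. None of their pairs had an adjusted p under 0.05 for Pearson r. The lowest was 0.0917, for macrophages and Trp63 (r = -0.74, exact permutation test). Beyond these correlations, the part of these tissues in the levels of the 10 factors was not tested.

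For each factor the genes most like it were found by Pearson r of log2(CPM + 0.5) over the 9 libraries among 15715 named genes with a mean of at least 1 CPM. Klf4 was most like Col7a1 (r = 0.96), the collagen of the anchoring fibrils, and Vstm5 (r = 0.95). Trp63 was most like Peli1 and Nipal4 (r = 0.99 for both), Zfp750 most like its fellow epidermal factor Grhl2 and Ap1m2 (r = 0.98 for both), and Dlx3 most like Krt28, a hair follicle keratin of the list above, and Ly6g6g (r = 0.98 for both). Grhl1 was most like Mreg and Egr3 (r = 0.97 for both), Grhl3 like Cttnbp2nl (r = 0.97) and Trim62 (r = 0.96), and Ovol1 like Tspan14 and Hsbp1l1 (r = 0.96 for both). Gata3 was most like 2610035D17Rik and Snrpa (r = 0.97 for both), Prdm1 like Gm20605 (r = 0.97) and Map3k1 (r = 0.96), and Hopx like Fam177a2 (r = 0.98) and Nfe2l3 (r = 0.97). These are the highest of many values over 9 libraries and are given as descriptions. They were not computed again without MXL_3. Gm20605 ranged from 0.263 to 26.2 CPM, so its lowest value lay below 1 CPM.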

How the data were processed

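Back skin RNA of 4 Model and 5 FJDHF-M mice was captured by its poly(A) tail, and strand-specific libraries were read in pairs. The authors deposited whole-number read counts per gene without normalization for 55401 genes, and FPKM values, which are scaled for gene length and depth, for 34637 genes. HISAT, StringTie, DESeq2 and the mm10 build are named in the submitters' processing notes, with no version or role. Whether the counts came from StringTie estimates is not given in the sources used here. The FPKM table repeats the counts in 9 columns, which held the same values as the count table and were left aside.

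Counts were fitted with edgeR 4.0.16 under R 4.3.3 (TMM after filterByExpr, quasi-likelihood test, no covariate, Benjamini-Hochberg adjustment over 20817 genes), after tests on simulated data. The biological coefficient of variation was 0.477. A floor of 3 counts was 0.0377 to 0.0402 CPM per library and covers counting error only, and every factor had at least 896 counts. Permutation tests enumerated all splits or pairings on log2(CPM + 0.5). Of 10 hair follicle genes listed, 9 were in the table. Whether the numbers shared by codes pair libraries is unknown, and the main fit used no pairing. Alternatives were DESeq2 1.42.0, its size factors, other filters, limma 3.58.1 on FPKM, covariates, a replicate block and leaving out each library.

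Members and lists were chosen with earlier results of these data known, though no measured value enters the rule that picks the members' rows. Named genes were the 10 factors, in each list up to 4 genes of smallest p, and for each factor the 2 genes of highest r. Any other gene was named once its values were known. A gene that the rule selects is left out, and its values are not reported here. The sequences came from RefSeq, whose table held windows for 6 of the 10 factors, and those of Trp63, Ovol1, Zfp750 and Dlx3 were not used here.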

Additional observations from a re-analysis of the deposited data

Results flagged for a closer look

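Among the 4 Model libraries, Klf4 in MXL1 (228 CPM) lay far above the other 3 (147, 152 and 157 CPM). The gap to its nearest neighbour was 0.846 of the whole range of the group on the log2(CPM + 0.5) scale, above Dixon's critical value of 0.829 for 4 libraries. The 10 factors in 2 groups gave 20 such comparisons, of which 1 was flagged and 1 would be by chance. Zfp750 in MXL_3, the lowest Model library for that factor, came next at 0.8287, just below the critical value. Without MXL1 the log2 fold change of Klf4 was 0.78 in place of 0.62.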

How the results depend on the processing

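Klf4 kept its direction and an unadjusted p under 0.05 in 18 of 18 alternatives, with log2 fold changes of 0.55 to 0.78 and unadjusted p of 0.00196 to 0.0318 (edgeR, limma or DESeq2), and was never called after adjustment. Only the exact permutation test of Klf4 minus the basal score lost its call. Grhl3, Ovol1 and Prdm1 kept their direction throughout, with lowest values of 0.21, 0.11 and 0.0013 without MXL_3. DESeq2's Wald test called 2 genes where edgeR called 0. The number of factors at an unadjusted p under 0.05 was 1 to 2 when libraries were left out, and Grhl3 was added without MXL1. The number of genes at that p, 326, was 905 without a filter on low counts and 217 (without MR4_5) to 734 (without MXL1) when libraries were left out. The number of correlated pairs of factors was 0 (without MXL_3) to 17. The median log2 fold change of the factors was -0.17 without MXL_3 and 0.30 without MXL1.

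The other 6 factors changed sign, all at an unadjusted p of 0.05 or more, and the cause was not tested. Trp63 was 0.00098 without a filter, 0.025 with at least 10 counts in every library, 0.098 and 0.10 in limma on log2(FPKM + 1) and log2(FPKM + 0.1), and 0.13 with the muscle score as covariate. Hopx was 0.012 and 0.023 in the same limma fits. With the basal score as covariate Grhl1 was -0.064, Zfp750 -0.033 and Dlx3 -0.037. In the permutation tests, subtracting the basal score gave -0.12 for Trp63, -0.051 for Grhl1, -0.032 for Zfp750 and -0.17 for Dlx3, and FPKM gave 0.018 for Hopx. With each library left out, the ranges were -0.24 to 0.15 for Trp63, -0.21 to 0.31 for Grhl1, -0.16 to 0.57 for Gata3, -0.18 to 0.24 for Zfp750, -0.40 to 0.11 for Hopx and -0.22 to 0.42 for Dlx3.

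A replicate block from the numbers that codes of both groups share (1, 3 and 3_4) gave 281 genes at an unadjusted p under 0.05, 0 after adjustment, 0.63 for Klf4 and -0.047 for Zfp750. Deviations from the group means had r = 0.22, 0.12 and -0.22 for these numbers. Pairs of libraries that share no number were not compared, so these values do not settle whether the numbers pair libraries. The set of alternatives for lists, for the count of factors above 0 and for correlations was chosen after seeing the data.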
